A study of Mus musculus with 17 samples.

Results

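Matrix remodeling and matricellular genes were examined in the livers of mice given a high-fat diet, a single binge of ethanol, or both. The set holds 10 genes chosen by name, with earlier results of these data known: Timp1, Lox, Mmp2, Mmp14, Lum, Dpt, Fbn1, Ctgf, Thbs1, and Spp1. All 15 probes that carry 1 of these symbols were taken, of 41174 non-control probes on the array. Of these 15 probes, 14 could be tested, covering 9 of the 10 genes. The only Lox probe was not well above background on any of the 17 arrays.

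Liver RNA of 17 male mice was hybridized to 2-color Agilent arrays, 1 array per mouse. The strain is C57BL/6N in the labels and C57BL/6J in the methods, and no mouse carried a transgene or deletion. Chow mice (n = 4) ate chow for 3 months and received maltose by gavage, and 1B mice (n = 4) ate chow for 3 months and received 1 gavage of ethanol at 5 g/kg. HFD mice (n = 4) ate a diet with 60% of calories as fat for 3 months and received maltose, and HFD+1B mice (n = 5) ate that diet and received the same ethanol gavage. The methods place the killing 9 hours after gavage and describe maltose as isocaloric with ethanol. Liver cDNA was in the Cy5 channel, and a purchased RNA mixed from mouse tissues was in the Cy3 channel of every array. Values below are log2 ratios of liver over this reference, so 1 unit is a 2-fold difference. A ratio compares mice for 1 probe and does not rank genes by abundance. Differences are given with their standard error (SE), and "called" means a p from limma that stayed at or under 0.05 after Benjamini-Hochberg adjustment over all 34664 probes tested.

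The liver matrix is kept in balance by enzymes that cut it, inhibitors that block those enzymes, and proteins that assemble and cross-link its fibers. TIMP1 is the best-known inhibitor induced in injured liver, while MMP2 and MMP14 are metalloproteinases, with MMP14 anchored in the cell membrane and able to activate MMP2. Lysyl oxidase (Lox) cross-links collagen and elastin, lumican and dermatopontin organize collagen fibrils, and fibrillin-1 builds microfibrils. CTGF, thrombospondin-1 (Thbs1), and osteopontin (Spp1) are matricellular proteins, which signal to cells from the matrix rather than carry load. Hepatic stellate cells and portal fibroblasts are well-known sources of many of these proteins in liver, and osteopontin is also made by bile duct cells and macrophages.

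The array read 4 of the genes with more than 1 probe. Both Timp1 probes, 2 of the 3 Thbs1 probes, and 1 of Mmp14 are shown because the probes of these genes did not always give the same result. Each is 60 bases long as deposited, and at least 1 reading frame has no stop over its whole length. Lower case is used throughout because no base is singled out.
Timp1 A_52_P87713: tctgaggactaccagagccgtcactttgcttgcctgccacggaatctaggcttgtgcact
Timp1 A_51_P512384: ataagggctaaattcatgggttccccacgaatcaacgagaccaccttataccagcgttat
Thbs1 A_52_P337086: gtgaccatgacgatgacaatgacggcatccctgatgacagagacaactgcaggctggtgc
Thbs1 A_52_P337092: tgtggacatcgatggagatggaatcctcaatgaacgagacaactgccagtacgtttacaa
Mmp14 A_52_P304128: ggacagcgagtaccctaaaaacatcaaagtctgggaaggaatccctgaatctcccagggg
The Timp1 probes share no run longer than 6 bases, so they read separate stretches of the transcript. Both shown Thbs1 probes share a run of 11 bases. G and C make up 55% of the brighter Timp1 probe and 45% of the dimmer one, and the same percentages hold for these Thbs1 probes.

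RefSeq upstream windows (build GRCm38.p6) were found for 5 of the 10 genes: Dpt, Fbn1, Spp1, Mmp14, and Timp1. The 250 bases before the start are shown for Timp1 and Spp1, the 2 of these 5 genes whose brightest probe was called in any comparison. Both lie on the plus strand, at chrX:20869916-20870165 for Timp1 and, for the first of its 2 listed starts, at chr5:104434861-104435110 for Spp1. Capitals mark the match to CCAAT, which reads ATTGG because it lies on the other strand.
Timp1: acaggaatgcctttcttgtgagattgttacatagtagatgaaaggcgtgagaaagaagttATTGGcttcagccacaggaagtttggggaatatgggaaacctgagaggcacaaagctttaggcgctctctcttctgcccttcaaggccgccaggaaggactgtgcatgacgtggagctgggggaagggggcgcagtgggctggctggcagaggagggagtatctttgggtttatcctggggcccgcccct
Spp1: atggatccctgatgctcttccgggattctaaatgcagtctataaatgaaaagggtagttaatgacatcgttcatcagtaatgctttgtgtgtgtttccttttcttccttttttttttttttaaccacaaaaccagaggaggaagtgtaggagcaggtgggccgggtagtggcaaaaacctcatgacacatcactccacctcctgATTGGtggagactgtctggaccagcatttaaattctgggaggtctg
CCAAT was searched on both strands and was present in 33.8% of the 32851 RefSeq windows of this length. GGGCGG (32.7% of windows) was found in the Timp1 window, as was GGAATG (12.6%), and TATAAA (12.4%) was found in the Spp1 window. TGANTCA, held by 6.7% of windows, was in neither. A match is a run of letters and not evidence of binding.

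Across groups, these genes were higher in HFD+1B liver than in chow liver or were not called. Of the 9 genes tested, 5 rose in HFD+1B against chow (Timp1, Mmp2, Lum, Thbs1, and Spp1) and none fell, where 7.79% of all probes tested rose and 6.98% fell. Of these 5, Mmp2 passed the filter on dim probes only through both high-fat groups, where it was high. Its calls here and below therefore describe it and are no separate evidence. In whole liver, more cells of a type and more RNA per cell cannot be told apart. In HFD against chow, 2 rose (Mmp2 and Lum) with 3.88% of all probes rising, and none fell with 6.1% of probes falling. Against HFD alone, 2 rose in HFD+1B (Timp1 and Thbs1) and none fell, with 9.92% of probes rising and 8.01% falling. Against 1B alone, 5 rose (Timp1, Mmp2, Lum, Thbs1, and Spp1) and none fell, with 5.31% of probes rising and 4.71% falling. In 1B against chow, none of the 9 genes was called in limma, where 1.84% of probes rose and 1.78% fell. Timp1 was the 1 gene of the 9 with an unadjusted p of 0.05 or less in that comparison, and the analysis of variance with the Tukey test that the methods name also called 0 genes. Comparisons of HFD+1B, HFD, and 1B with chow share the chow mice, so their values are not independent.

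**Figure D1:**
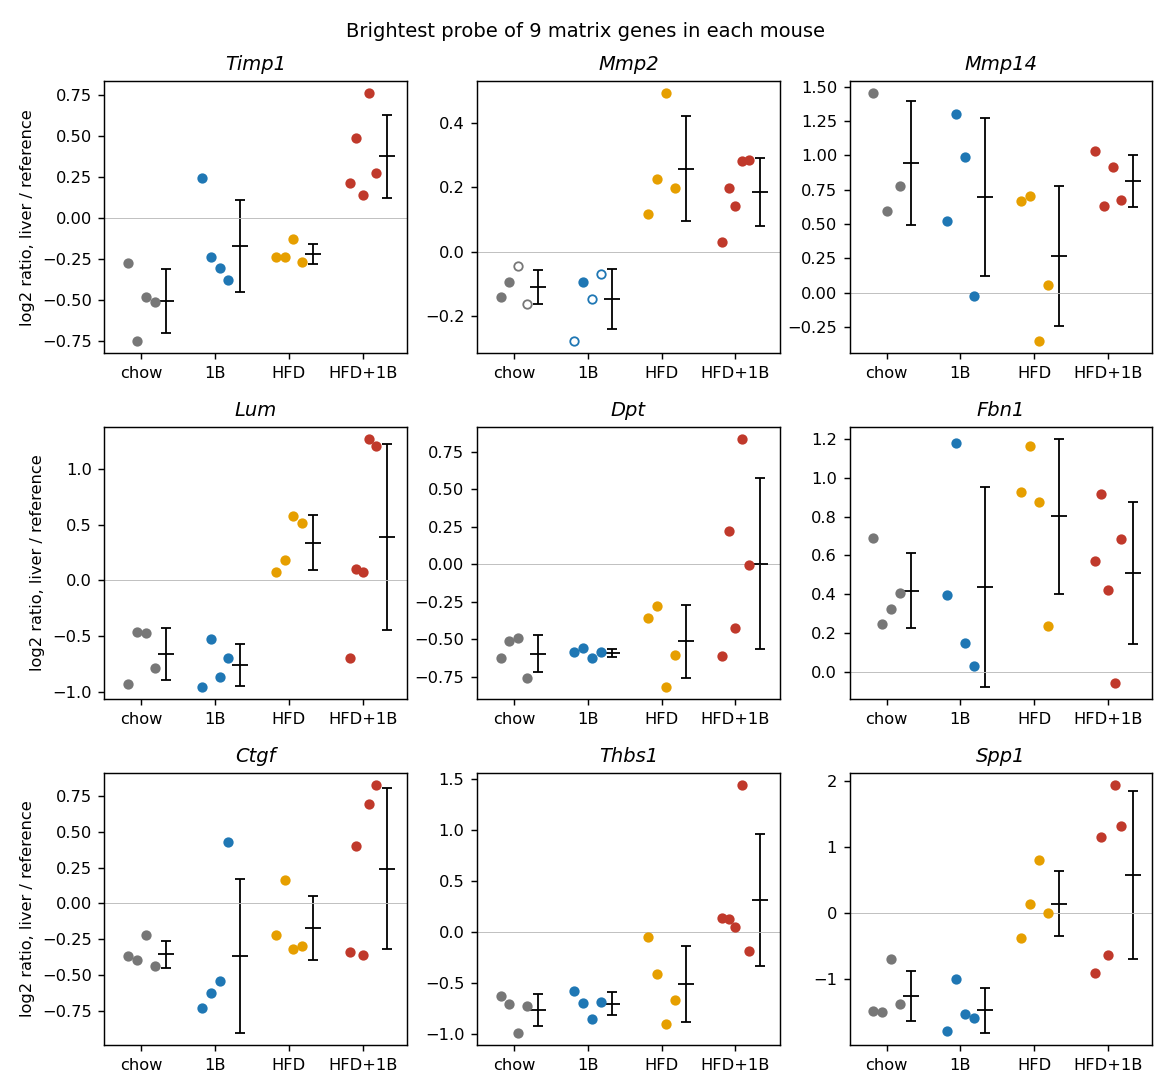
Log2 ratio of liver over reference (vertical axis) in each mouse for the brightest probe of 9 genes, by group (horizontal axis). Each point is 1 mouse, open where the probe was not well above background, and the bar beside each group is its mean ± SD. Timp1 and Thbs1 sit highest in HFD+1B mice, Mmp2 and Lum are high in both high-fat groups, and HFD+1B mice spread from -0.91 to 1.94 for Spp1.

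Over all 9 genes together, the median HFD+1B minus chow difference was 0.60, against -0.00 over all probes tested. In HFD against chow the corresponding medians were 0.29 and -0.00, and in 1B against chow they were -0.01 and 0.01. No member gene had a called interaction, which is the ethanol effect on HFD minus the ethanol effect on chow, where 2.5% of probes were higher and 1.6% lower. The smallest unadjusted p for that interaction was 0.0443, for the brightest probe of Thbs1 (0.77, SE 0.35, adjusted p = 0.238 by limma).

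**Figure D2:**
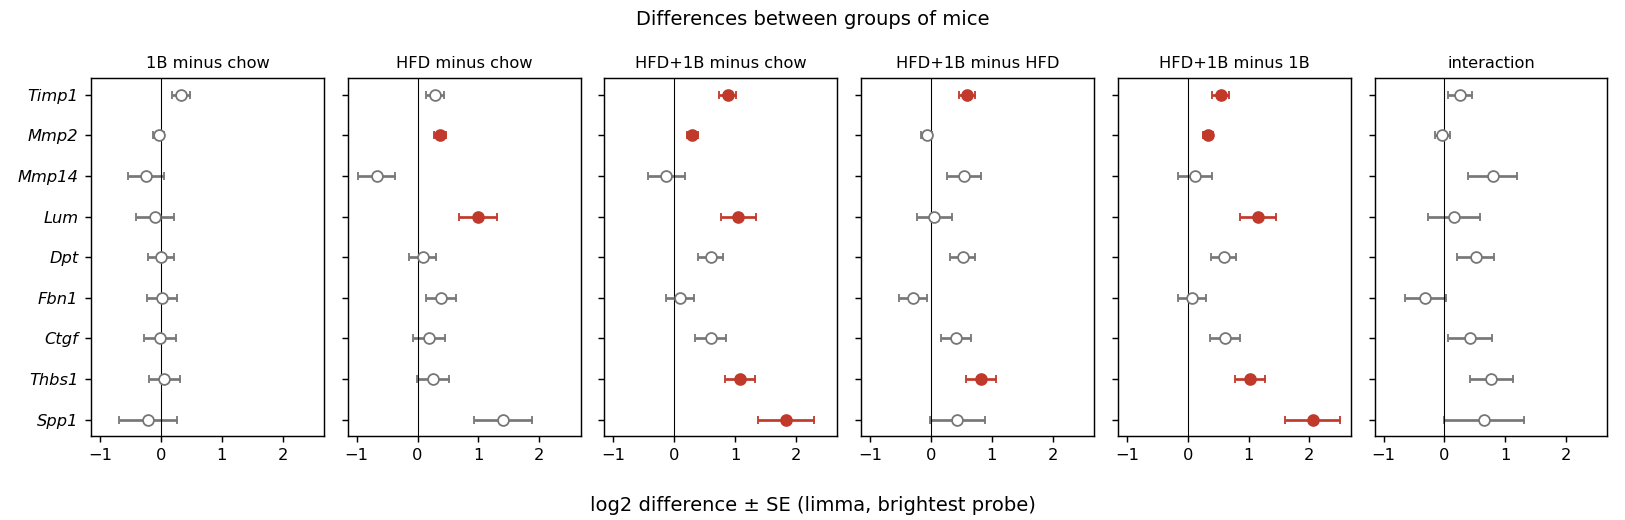
Log2 difference ± SE of the brightest probe of 9 genes (rows) in each comparison (panels), from limma over 17 arrays. Filled points passed the adjusted threshold of 0.05 and open points did not. All filled points lie to the right of 0, with Spp1 largest at 2.05 in HFD+1B against 1B.

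Timp1, the metalloproteinase inhibitor, was higher in the livers that had both exposures than in each of the other groups. By its brightest probe, log2 ratios in HFD+1B mice 1 to 5 were 0.21, 0.49, 0.14, 0.76, and 0.28. The chow mice read -0.27, -0.75, -0.48, and -0.51, and the HFD mice -0.24, -0.23, -0.13, and -0.27. The 1B mice read 0.24, -0.24, -0.30, and -0.38, so that 1B mouse 1 lay among the HFD+1B mice while the other two groups did not overlap with HFD+1B. Against chow, HFD+1B differed by 0.88 (SE 0.14, a 1.84-fold rise, adjusted p = 0.000268), against HFD by 0.59 (SE 0.14, 1.51-fold, adjusted p = 0.00683), and against 1B by 0.54 (SE 0.14, 1.46-fold, adjusted p = 0.0171), all by limma. HFD mice all lay above chow mice, with a difference of 0.29 (SE 0.15) that was not called (adjusted p = 0.228). The difference against 1B lost its call without 1B mouse 2, 3, or 4 (0.47 to 0.52, adjusted p from 0.0512 to 0.0618) and was -0.03 within the slide that held 1B mouse 1. Within single slides, HFD+1B was higher than chow on all 4 slides that held both (0.49 to 1.02) and higher than HFD on all 4 (0.27 to 1.03).

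The dimmer Timp1 probe gave the same order for chow and HFD+1B but placed 1B lower. It averaged -0.54 ± 0.10 (SD, n = 4) in chow, -0.61 ± 0.14 (n = 4) in 1B, -0.12 ± 0.17 (n = 4) in HFD, and 0.21 ± 0.30 (n = 5) in HFD+1B. HFD+1B was called higher than chow (0.75, SE 0.13, adjusted p = 0.000656) and than 1B (0.82, SE 0.13, adjusted p = 0.000632). Against HFD its difference was 0.33 (SE 0.13), which was not called (adjusted p = 0.0882 by limma). With slide as a block it was 0.36 and called (adjusted p = 0.0290). Leaving out HFD+1B mouse 1 or 3 brought that last difference to between 0.40 and 0.41 with an adjusted p from 0.0411 to 0.0446. For HFD against chow, this probe gave 0.42 (SE 0.14, adjusted p = 0.0614), called without HFD mouse 1 or HFD+1B mouse 1 or 4 (0.42 to 0.49, adjusted p from 0.0284 to 0.0466). The deposited log2 table, which holds ratios of the scanner software's processed signals, gave 1.77 against chow (adjusted p = 0.00788) and 2.07 against 1B (adjusted p = 0.00512).

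Mmp2, the secreted gelatinase, was higher in both high-fat groups and near the detection limit in the others. Its probe was well above background in 2 of 4 chow mice, 1 of 4 1B mice, 4 of 4 HFD mice, and 5 of 5 HFD+1B mice. It would not have passed the filter without the groups in which it was high, so its differences describe it and are no separate evidence. Chow mice read -0.14, -0.09, -0.04, and -0.16, and 1B mice -0.28, -0.09, -0.15, and -0.07. HFD mice read 0.12, 0.23, 0.49, and 0.20, and HFD+1B mice 0.03, 0.20, 0.14, 0.28, and 0.28. Every mouse on the high-fat diet was above every mouse on chow. The difference was 0.37 (SE 0.09, 1.29-fold, adjusted p = 0.0172 by limma) in HFD against chow and 0.30 (SE 0.09, 1.23-fold, adjusted p = 0.0274) in HFD+1B against chow. HFD+1B also exceeded 1B by 0.33 (SE 0.09, adjusted p = 0.0198), whereas HFD+1B and HFD differed by -0.07 (SE 0.09, adjusted p = 0.624). The same probe differed by more in the deposited log2 table, at 1.77 for HFD against chow (adjusted p = 0.00207), 1.34 for HFD+1B against chow (adjusted p = 0.00574), and 1.79 for HFD+1B against 1B (adjusted p = 0.00152). Under median centering, HFD+1B lost its calls against chow (0.29, adjusted p = 0.160) and 1B (0.26, adjusted p = 0.263). From Cy5 alone, none of the 3 differences was called (0.30, 0.22, and 0.34 in the same order, adjusted p = 0.200, 0.378, and 0.153). All 3 calls depended on single mice. The call against chow was lost for HFD without chow mouse 4 or HFD mouse 3 (0.29 to 0.35, adjusted p from 0.0537 to 0.0663) and for HFD+1B without chow mouse 1, 2, or 4 or HFD+1B mouse 4 or 5 (0.27 to 0.30, adjusted p from 0.0543 to 0.0801). The call against 1B was lost without 1B mouse 1 or 3 or HFD+1B mouse 4 (0.29 to 0.33, adjusted p from 0.0516 to 0.0726).

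Mmp14, the membrane-bound metalloproteinase, gave different pictures by its probes, and neither probe was called in any comparison of the fit over all 17 mice. The brighter probe read 1.45, 0.60, and 0.78 in chow mice 2 to 4 and 1.03, 0.63, 0.91, and 0.68 in HFD+1B mice 2 to 5, after the scanner software marked its spot as an outlier in mouse 1 of both groups and the fit dropped those values. It read 0.52, 1.30, 0.99, and -0.02 in 1B mice and 0.67, 0.71, -0.35, and 0.06 in HFD mice. HFD+1B and chow differed by -0.13 (SE 0.30, adjusted p = 0.851) for this probe. The dimmer probe read 0.23, 0.32, 0.22, 0.49, and 0.46 in HFD+1B mice and 0.62, -0.36, -0.58, and -0.66 in chow mice. Its HFD+1B minus chow difference was 0.59 (SE 0.20, adjusted p = 0.0592 by limma). Chow mouse 1 alone lay above all HFD+1B mice, and without it the difference was 0.87 with an adjusted p of 0.000528. Leaving out that mouse also brought HFD+1B minus HFD (0.45, adjusted p = 0.0237) and HFD+1B minus 1B (0.42, adjusted p = 0.0482) under the threshold for this probe. Without HFD mouse 3, the HFD+1B minus chow difference of 0.59 had an adjusted p of 0.0422. Median centering called this probe in HFD+1B against chow (0.66, adjusted p = 0.0466) and against HFD (0.68, adjusted p = 0.0278).

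Lox could not be measured. Its probe read between -0.33 and 0.22 over all 17 mice and was well above background in 0 of them, so no group comparison was made for this cross-linking enzyme.

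**Figure D3:**
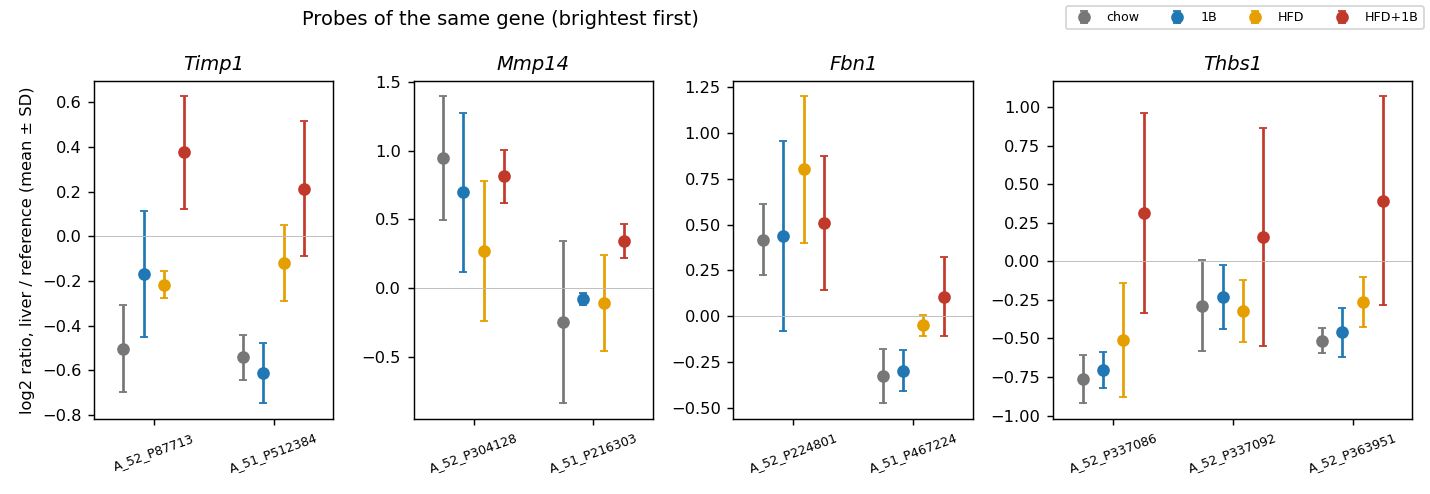
Mean log2 ratio of liver over reference ± SD (vertical axis) in chow, 1B, HFD, and HFD+1B mice for each probe (horizontal axis) of the 4 genes that have more than 1 probe, brightest first. Both Timp1 probes are highest in HFD+1B, while the brighter probes of Mmp14 and Fbn1 do not place HFD+1B highest and their dimmer probes do.

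Among proteins that organize fibrils, lumican (Lum) was higher in both high-fat groups. Chow mice read -0.93, -0.46, -0.47, and -0.79, 1B mice -0.95, -0.53, -0.86, and -0.70, and HFD mice 0.07, 0.19, 0.58, and 0.51. HFD+1B mice read -0.69, 0.10, 0.08, 1.26, and 1.20, so that mouse 1 lay within the range of chow mice, mice 2 and 3 near the lowest HFD mouse, and mice 4 and 5 above every HFD mouse. The rise over chow was 1.00 (SE 0.31, 2.00-fold, adjusted p = 0.0484 by limma) in HFD and 1.05 (SE 0.29, 2.07-fold, adjusted p = 0.0203) in HFD+1B. HFD+1B exceeded 1B by 1.15 (SE 0.29, 2.22-fold, adjusted p = 0.0172), and HFD+1B and HFD differed by 0.06 (SE 0.29, adjusted p = 0.925). Although HFD and chow did not overlap, the HFD call was lost when any of 14 mice was left out, namely every chow, 1B, and HFD mouse and HFD+1B mouse 2 or 3 (0.91 to 1.09, adjusted p from 0.0521 to 0.130). The HFD+1B call against chow was lost without chow mouse 1 or 4 or HFD+1B mouse 4 (0.83 to 1.01, adjusted p from 0.0531 to 0.0619), and the call against 1B without 1B mouse 1 or 3 (1.09 to 1.12, adjusted p from 0.0512 to 0.0547). For HFD against chow the deposited log2 table gave 1.60 (adjusted p = 0.0287). That call was lost from Cy5 alone (0.74, adjusted p = 0.282) and with no filter on dim probes (1.00, adjusted p = 0.0663). It was also lost with the mean of each gene's probes, with the Tukey test, and under a 2-fold threshold. From Cy5 alone, HFD+1B lost its calls against chow (0.90, adjusted p = 0.150) and 1B (1.05, adjusted p = 0.120).

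Dermatopontin (Dpt) was uneven in HFD+1B mice and was called in no comparison of the fit over all 17 mice. Chow mice read -0.63, -0.51, -0.49, and -0.76, and 1B mice lay close together at -0.59, -0.56, -0.63, and -0.58. HFD mice read -0.36, -0.28, -0.82, and -0.60, and HFD+1B mice -0.61, 0.22, -0.42, 0.83, and -0.00. Mice 2 to 5 of HFD+1B lay above all chow mice, with mouse 1 inside their range. The difference from chow was 0.60 (SE 0.21, adjusted p = 0.0589), that from HFD 0.52 (SE 0.21, adjusted p = 0.0902), and that from 1B 0.59 (SE 0.21, adjusted p = 0.0796), all by limma. Without HFD+1B mouse 1 or 3, each passed: 0.71 to 0.75 against chow (adjusted p from 0.0106 to 0.0312), 0.62 to 0.67 against HFD (from 0.0227 to 0.0471), and 0.70 to 0.75 against 1B (from 0.0159 to 0.0445). With slide as a block the difference from 1B was called (0.68, adjusted p = 0.0290), and in the deposited log2 table that from HFD was (1.06, adjusted p = 0.0370). Median centering also called the difference from HFD (0.60, adjusted p = 0.0444).

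Fibrillin-1 (Fbn1) also depended on the probe. The brighter probe averaged 0.42 ± 0.19 (SD, n = 4) in chow, 0.44 ± 0.52 (n = 4) in 1B, 0.80 ± 0.40 (n = 4) in HFD, and 0.51 ± 0.37 (n = 5) in HFD+1B, and it was called in no comparison. The dimmer probe read -0.50, -0.14, -0.36, and -0.31 in chow mice and -0.17, 0.25, -0.06, 0.34, and 0.17 in HFD+1B mice. It was called in HFD+1B against chow (0.43, SE 0.11, 1.35-fold, adjusted p = 0.00878) and against 1B (0.40, SE 0.11, 1.32-fold, adjusted p = 0.0198), whereas the brighter probe gave 0.09 (SE 0.23) and 0.07 (SE 0.23) in the same comparisons. The call against 1B was lost without 1B mouse 1 or 2 or HFD+1B mouse 4 (0.35 to 0.40, adjusted p from 0.0519 to 0.0731). In the deposited log2 table the dimmer probe gave 0.89 against chow (adjusted p = 0.0356) and 1.09 against 1B (adjusted p = 0.0182). Both calls were lost from Cy5 alone (0.31 and 0.38, adjusted p = 0.216 and 0.157 by limma). Median centering lost the call against 1B (0.36, adjusted p = 0.0800). Both probes contain a stop in every frame over their 60 bases and share no run longer than 6 bases.

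Of the matricellular genes, thrombospondin-1 (Thbs1) was higher with both exposures than in every other group by its brightest probe. On that probe, HFD+1B mice read 0.13, 0.13, 0.05, 1.44, and -0.19, against -0.63, -0.71, -0.99, and -0.73 in chow mice. With the mean of its probes, the calls against 1B and HFD were lost (adjusted p = 0.0519 and 0.0666 by limma). The 1B mice read -0.58, -0.69, -0.86, and -0.69, and HFD mice -0.05, -0.42, -0.91, and -0.67. Every HFD+1B mouse was above every chow and 1B mouse, and HFD mouse 1 was the only HFD mouse inside the HFD+1B range. HFD+1B exceeded chow by 1.08 (SE 0.24, 2.11-fold, adjusted p = 0.00518), 1B by 1.02 (SE 0.24, 2.03-fold, adjusted p = 0.0119), and HFD by 0.82 (SE 0.24, 1.77-fold, adjusted p = 0.0256), all by limma. In HFD against chow the difference was 0.25 (SE 0.26, adjusted p = 0.581). The call against HFD was lost without HFD mouse 3 or 4 (0.69 to 0.77, adjusted p from 0.0740 to 0.0904). With any 1 mouse left out, the difference from chow lay between 0.80 and 1.20 and kept its call. In the deposited log2 table the differences were 1.69 from chow, 1.64 from 1B, and 1.47 from HFD (adjusted p = 0.00495, 0.0106, and 0.00965).

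The other Thbs1 probes were dimmer and differed from each other. One, A_52_P363951, was well above background in 1 of 4 chow, 0 of 4 1B, 1 of 4 HFD, and 5 of 5 HFD+1B mice. It passed the filter on dim probes only through HFD+1B, where it was high, so its differences describe it and are no separate evidence for Thbs1. HFD+1B minus chow was 0.91 (SE 0.23, adjusted p = 0.0129). Since it was not well above background in 1B, its Cy5 signal there was compared with a floor. For each 1B array, the floor was the lowest signal among probes well above background. The probe's own signal was the higher on every 1B array, so the floor was not used. Its mean Cy5 signal in HFD+1B, averaged on the log2 scale, was 1.89-fold that in 1B (adjusted p = 0.0264 by limma for the log ratio). HFD+1B mouse 4 had a log2 ratio of 1.58 on this probe, and the others lay from -0.05 to 0.32. The p against 1B missed the threshold without 1B mouse 1, 2, or 3 (0.78 to 0.86 on the log2 ratio scale, adjusted p from 0.0565 to 0.0843). Against HFD the difference was 0.65 (SE 0.23, adjusted p = 0.0607), called without any 1 of HFD+1B mice 1 to 4 (0.36 to 0.77, adjusted p from 0.0380 to 0.0495). That difference was 0.72 (adjusted p = 0.0235) with slide as a block, 0.77 (0.0427) without background subtraction, 0.79 (0.0422) from Cy5 alone, and 1.00 (0.0203) with a smaller offset of 16 in the background correction, an alternative chosen after seeing the data. In the deposited log2 table this probe differed by 3.24 from chow, 3.75 from 1B, and 2.55 from HFD (adjusted p = 0.00139, 0.00100, and 0.00622), with an interaction of 3.06 (adjusted p = 0.0495). The other, A_52_P337092, whose sequence is given above, was well above background on 11 of 17 arrays and gave 0.44 (SE 0.26, adjusted p = 0.306) in HFD+1B against chow.

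Connective tissue growth factor (Ctgf) was not called in any comparison. HFD+1B mice split into a pair near chow (-0.34 and -0.36 in mice 1 and 3) and a trio above it (0.40, 0.69, and 0.82 in mice 2, 4, and 5). Chow mice read -0.36, -0.40, -0.22, and -0.44, and HFD mice -0.22, 0.16, -0.31, and -0.30. Among 1B mice, mouse 4 read 0.43 while the others read -0.73, -0.62, and -0.54. HFD+1B minus chow was 0.60 (SE 0.25, adjusted p = 0.127 by limma) and HFD+1B minus 1B was 0.61 (SE 0.25, adjusted p = 0.146). Without 1B mouse 4 the latter was 0.87 with an adjusted p of 0.0224, and without HFD+1B mouse 1 the former was 0.74 with an adjusted p of 0.0498.

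Osteopontin (Spp1) had the largest difference of the 9 genes in HFD against chow and in HFD+1B against chow or 1B. Chow mice read -1.48, -1.5, -0.69, and -1.37, and 1B mice -1.79, -1.0, -1.52, and -1.59. HFD mice read -0.38, 0.14, 0.81, and -0.00, all above all chow mice. HFD+1B mice read -0.91, 1.16, -0.63, 1.94, and 1.32, so that mouse 1 lay just below chow mouse 3 and mouse 3 just above it, while mice 2, 4, and 5 exceeded every HFD mouse. HFD+1B exceeded chow by 1.84 (SE 0.45, 3.57-fold, adjusted p = 0.00961) and 1B by 2.05 (SE 0.45, 4.15-fold, adjusted p = 0.00728), both by limma. HFD minus chow was 1.40 (SE 0.48), which was not called (adjusted p = 0.0709) and passed without HFD+1B mouse 1 or 4, which changes only the estimate of the spread (1.40, adjusted p from 0.0313 to 0.0389). HFD+1B and HFD differed by 0.43 (SE 0.45, adjusted p = 0.559). The difference between HFD+1B and chow kept its call with any 1 mouse left out (1.49 to 2.21).

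**Figure D4:**
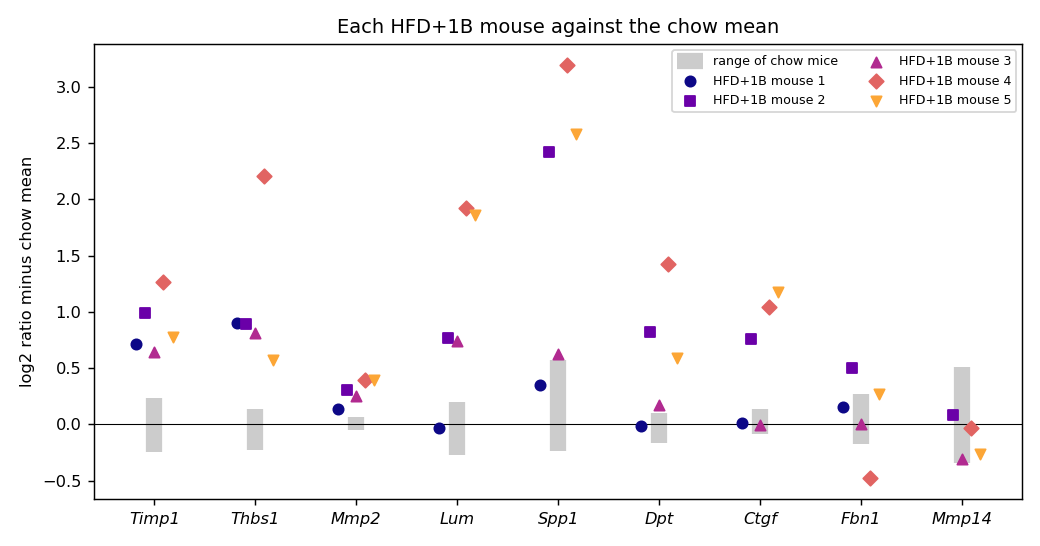
Log2 ratio of each HFD+1B mouse minus the chow mean (vertical axis) for the brightest probe of 9 genes (horizontal axis), with the gray bar spanning the chow mice. HFD+1B mouse 4 is highest for Timp1, Thbs1, Lum, Spp1, and Dpt and lowest for Fbn1, while mouse 1 lies at the level of chow for Lum, Dpt, and Ctgf.

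The HFD+1B mice differed from each other more than the mice of other groups did for several genes. The SD among HFD+1B mice was 1.27 for Spp1 (0.38 in chow, 0.33 in 1B, and 0.49 in HFD) and 0.83 for Lum (0.24, 0.19, and 0.25 in the same order). For Thbs1 it was 0.65 in HFD+1B against 0.16 in chow, 0.12 in 1B, and 0.37 in HFD. HFD+1B mouse 4 was the highest of its group for Timp1, Lum, Dpt, Thbs1, and Spp1, and mouse 1 the lowest for Mmp2, Lum, Dpt, and Spp1. The median Cy5 signal was 143.5 on the array of mouse 1 and 105 on that of mouse 4, with 84% and 80.3% of probes well above background. Their part in these values was not tested.

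The 5 slides each held 3 or 4 arrays of different groups. With slide as a block, each brightest-probe difference called above was called again, at 0.87 for Timp1, 0.99 for Thbs1, 0.96 for Lum, 0.29 for Mmp2, and 1.75 for Spp1 in HFD+1B against chow. For Thbs1, HFD+1B was higher than chow (0.52 to 1.12) and than HFD (0.18 to 2.12) on all 4 slides that held each pair. Spp1 was higher in HFD+1B than in chow on all 4 slides (0.57 to 2.82) and higher in HFD than in chow on all 3 (1.1 to 2.18). Lum (0.24 to 1.66) and Mmp2 (0.17 to 0.38) were also higher in HFD+1B than in chow on all 4 slides.

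Some genes moved together over the 17 mice. Pearson r was 0.93 between Lum and Spp1, 0.88 between Mmp2 and Lum, 0.88 between Mmp2 and Spp1, 0.85 between Dpt and Thbs1, and 0.81 between Timp1 and Thbs1. Mmp14 and Mmp2 ran the other way (r = -0.40, over the 15 mice with an Mmp14 value). All these genes share the arrays, the reference, and the group structure, so the values describe patterns and carry no test. Over 15973 genes measured above background in all mice, the closest to Lum were Col6a2 and Col6a1 (both r = 0.97), which encode collagen VI chains. Closest to Spp1 were Ccdc80 and Phlda3 (both 0.96), to Mmp2 Serinc2 and Ifi27l2a (both 0.95), and to Thbs1 Fgl2 and Sntb2 (both 0.92). For Timp1 the closest were Dusp6 (0.91) and Dlgap4 (0.90), for Dpt B830017H08Rik and Fgfr4 (both 0.96), and for Ctgf C1qtnf5 and Slc16a9 (both 0.87). Fbn1 was closest to Poc1b and Olfr137 (both 0.90), and Mmp14 to Sost (0.92) and Aanat (0.89).

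A list of 119 other matrix genes was read beside these, of which 112 were tested. It was also chosen with earlier results of these data known, so its counts are a description and no separate evidence. Each gene was counted by its brightest probe, whereas the percentages cover all probes tested. In HFD+1B against chow, 31 rose and 1 fell (7.79% and 6.98% of all probes), with a median difference of 0.19 against -0.00 over all probes. By role, the number that rose was 5 of 13 for cross-linking enzymes, 4 of 9 for fibronectin, laminins, and nidogens, 4 of 9 for small leucine-rich and other proteoglycans, 3 of 8 for protease inhibitors, 6 of 23 for metalloproteinases and their relatives, 3 of 15 for microfibril and elastic fiber proteins, 3 of 21 for matricellular proteins, 2 of 10 for receptors of the 10 genes, and 1 of 4 for the plasminogen system. The gene that fell was Mmp10, the metalloproteinase stromelysin-2 (-0.63, SE 0.13, adjusted p = 0.00217), and it also fell in HFD against chow (-0.71, SE 0.13, adjusted p = 0.00297). Among the largest rises were those of Tgm2, the tissue transglutaminase (3.14, SE 0.24, 8.82-fold), Cd63, a tetraspanin that binds TIMP1 at the cell surface (2.70, SE 0.29, 6.49-fold), and Cd36, a receptor for thrombospondin-1 and fatty acids (2.20, SE 0.27, 4.58-fold). Their limma adjusted p-values were 4.30e-07, 8.33e-06, and 2.24e-05, and each of these 3 genes was higher in all 5 HFD+1B mice than in all chow mice.

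In HFD against chow, 17 of the 112 rose and 4 fell, where 3.88% of all probes rose and 6.1% fell. Cd36 (1.80, SE 0.28), Tgm2 (1.41, SE 0.26), Cd63 (1.12, SE 0.31), and the collagen-binding protein Sparc (1.1, SE 0.26) rose most, with adjusted p-values of 0.000849, 0.00245, 0.0299, and 0.0124 by limma. Mmp10, Comp (-0.77, SE 0.15, adjusted p = 0.00314), Postn (-0.95, SE 0.13, adjusted p = 0.000323), and Plg (-2.33, SE 0.39, adjusted p = 0.00176) fell. Comp and Postn encode the matricellular proteins cartilage oligomeric matrix protein and periostin, and Plg encodes plasminogen, which liver secretes. With median centering in place of loess normalization, the counts were 9 that rose and 6 that fell, with the share of all probes not counted. The count was 11 without chow mouse 4 and 12 without HFD mouse 3. Cd63 lost its call without chow mouse 2, 3, or 4 or HFD mouse 4 (0.81 to 1.12, adjusted p from 0.0610 to 0.0958) and under median centering (0.98, adjusted p = 0.0517). Cd63 (0.33), Tgm2 (1.49), Sparc (1.13), Comp (-0.44), and Postn (-0.57) were not called from Cy5 alone. Their limma adjusted p-values were 0.718, 0.0572, 0.0723, 0.260, and 0.0785, while Cd36, Mmp10, and Plg kept their calls.

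Ethanol on the high-fat diet, read as HFD+1B against HFD, gave 18 of the 112 genes that rose and 1 that fell, where 9.92% of all probes rose and 8.01% fell. Plg (1.84, SE 0.38, adjusted p = 0.00316), Tgm2 (1.73, SE 0.24, adjusted p = 0.000193), Cd63 (1.58, SE 0.29, adjusted p = 0.00158), and the aggrecanase Adamts5 (0.99, SE 0.28, adjusted p = 0.0221) rose most. The osteopontin and hyaluronan receptor Cd44 fell (-0.48, SE 0.15, adjusted p = 0.0366 by limma). Adamts5 lost its call without HFD mouse 1 or 4 or HFD+1B mouse 1 or 4 (0.82 to 0.88, adjusted p from 0.0533 to 0.0850), and Cd44 without HFD mouse 1, 2, or 3 or HFD+1B mouse 4 or 5 (-0.49 to -0.39, adjusted p from 0.0687 to 0.10). Median centering gave 39 that rose and 0 that fell, with the share of all probes not counted. Under it, Cd44 differed by -0.22 (adjusted p = 0.344). Adamts5 (1.08, adjusted p = 0.112) and Cd44 (-0.60, adjusted p = 0.168) were not called by limma from Cy5 alone.

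In HFD+1B against 1B, 21 rose and 2 fell, where 5.31% of all probes rose and 4.71% fell. Among the largest rises were those of Cd36 (2.55, SE 0.27), Tgm2 (2.35, SE 0.24), and Cd63 (2.19, SE 0.29), with adjusted p-values of 1.17e-05, 1.10e-05, and 0.000155 by limma. Mmp19 (-0.48, SE 0.13, adjusted p = 0.0250) and Reck, a membrane-anchored inhibitor of metalloproteinases (-0.60, SE 0.10, adjusted p = 0.000890), fell. Mmp19 lost its call without 1B mouse 1 or 2 or HFD+1B mouse 3 (-0.43 to -0.38, adjusted p from 0.0622 to 0.101). Mmp19 was also not called by limma under median centering (-0.39, adjusted p = 0.127) or from Cy5 alone (-0.47, adjusted p = 0.191). Without HFD+1B mouse 1, 40 genes were called, with the share of all probes not counted.

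In 1B against chow, 2 of the 112 rose and 1 fell, near the 1.84% and 1.78% of all probes. Smoc1 (0.88, SE 0.16, adjusted p = 0.00274) and Reck (0.57, SE 0.10, adjusted p = 0.00389) rose and Cyr61, a matricellular relative of Ctgf, fell (-0.81, SE 0.19, adjusted p = 0.0215 by limma). The Cyr61 call was lost without chow mouse 2, 3, or 4 or 1B mouse 1 (-0.78 to -0.71, adjusted p from 0.0546 to 0.0902). Smoc1 (0.81, adjusted p = 0.119), Reck (0.43, adjusted p = 0.187), and Cyr61 (-0.66, adjusted p = 0.334) were not called by limma from Cy5 alone. Among the 112 genes, the ethanol effect differed between diets for Postn (0.92, SE 0.18, adjusted p = 0.0117), Cd47 (0.51, SE 0.14, adjusted p = 0.0482), and Reck (-0.60, SE 0.14, adjusted p = 0.0279), a count no higher than the share over all probes (2.5% higher and 1.6% lower). Median centering gave 6 higher and 1 lower for that interaction, with the share of all probes not counted. Leaving out chow mouse 1, 1B mouse 1, or HFD mouse 4 gave 1 gene. The interactions of Postn, Cd47, and Reck were not called from Cy5 alone.

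**Figure D5:**
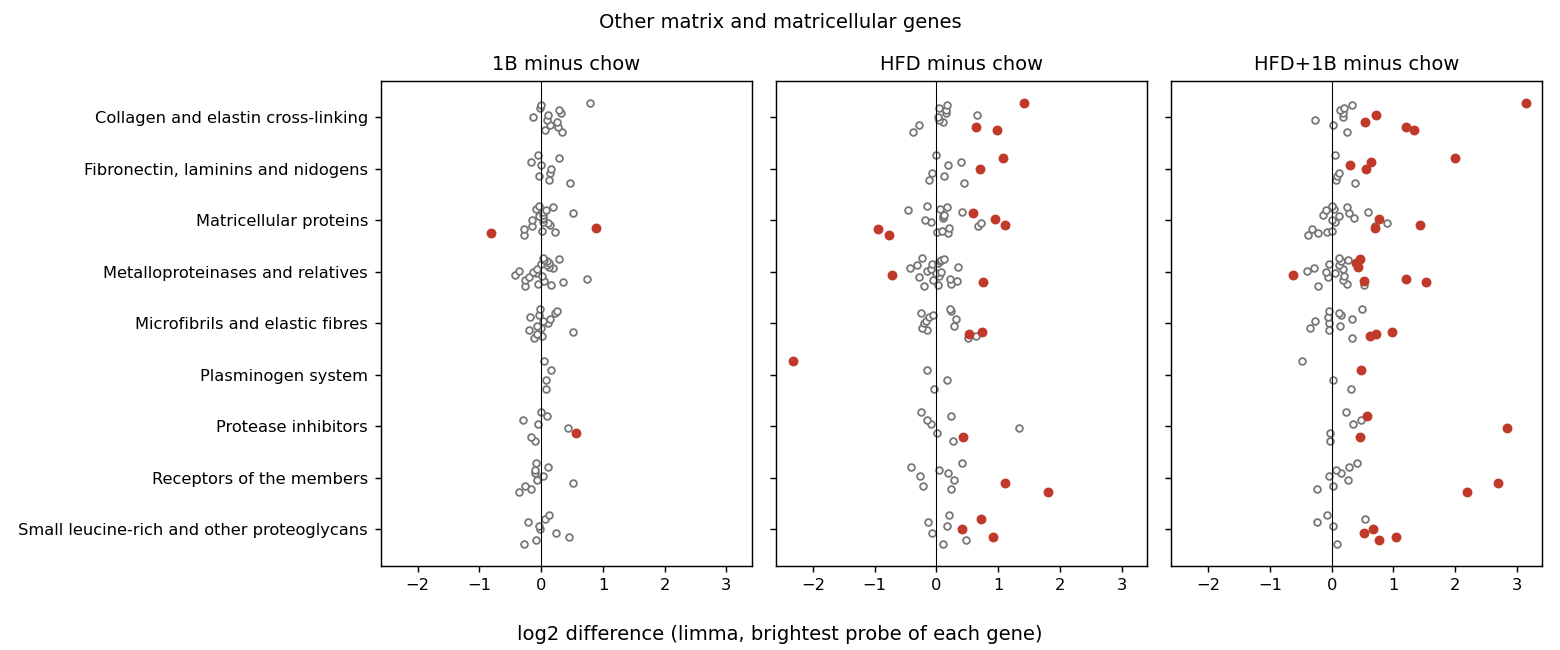
Log2 difference (horizontal axis) of the brightest probe of 112 other matrix genes by role (rows) in 1B, HFD, and HFD+1B against chow (panels). Filled points passed the adjusted threshold of 0.05. In 1B the points lie between -0.81 and 0.88, and the largest value is 3.14 for Tgm2 in HFD+1B.

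Markers of stellate cells and myofibroblasts moved with these genes, and those of portal fibroblasts did in 1 of 6 cases. All 5 markers of activated stellate cells and myofibroblasts rose in HFD+1B against chow, among them Acta2 (1.15, SE 0.16, adjusted p = 0.000126) and Tagln (0.53, SE 0.13, adjusted p = 0.00724), and their mean level above the chow mean ranged from 0.67 to 1.68 in HFD+1B mice, 0.58 to 0.88 in HFD mice, -0.06 to 0.22 in 1B mice, and -0.14 to 0.33 in chow mice. This list includes Col1a1, Col1a2, and Col3a1, which encode matrix collagens themselves. The lists of stellate cell and portal fibroblast markers overlap with the list of other matrix genes, so their values are not independent of it. Of 9 stellate cell markers, 5 rose, including Lrat (1.04, SE 0.22, adjusted p = 0.00297), with list means from 0.08 to 0.93 in HFD+1B, 0.42 to 0.61 in HFD, 0.16 to 0.20 in 1B, and -0.13 to 0.17 in chow. Acta2 (0.76, adjusted p = 0.213), Tagln (0.82, adjusted p = 0.298), and Lrat (0.92, adjusted p = 0.0676) were not called by limma from Cy5 alone.

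Among other cells, monocyte and lipid-associated macrophage markers rose in 2 of 6 cases in HFD+1B against chow, with list means of 0.22 to 1.12 in HFD+1B, 0.54 to 0.73 in HFD, and -0.12 to 0.18 in chow. Neutrophil markers rose in 2 of 5, namely S100a8 (1.46, SE 0.10, adjusted p = 1.35e-07) and S100a9 (1.04, SE 0.20, adjusted p = 0.00162). The other 3 were not called and had negative differences, the lowest -0.16. Ly6g, the neutrophil marker of the paper's PCR, had no probe under that symbol. Platelet markers rose in 1 of 5, namely Pf4 (0.70, SE 0.20, adjusted p = 0.0259), which lost its call without any 1 chow mouse or HFD+1B mouse 2, 4, or 5 (0.59 to 0.71, adjusted p from 0.0502 to 0.0711). Pf4 was also not called by limma from Cy5 alone (0.48, adjusted p = 0.344). Mesothelial markers rose in 2 of 4 cases and adipocyte markers in 1 of 5, while none of 5 cholangiocyte, 4 Kupffer cell, or 4 hepatocyte markers was called. Sinusoidal endothelial markers rose in 1 of 5 cases and fell in 1. The defining hepatocyte markers Alb and Apoa1 were well above background on 17 of 17 arrays, and no defining marker of any list was at 0 arrays. The part of these cells in the values of the 10 genes was not tested.

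Counts differed from Cy5 alone and under a fold threshold. The Cy5 values were quantile normalized between arrays, with neither the reference nor loess. Which of these changes moved the counts was not tested. From Cy5 alone, 2 of the 9 genes were called in HFD+1B against chow (Timp1 and Thbs1). Thbs1 was the 1 gene called against HFD and the 1 called against 1B. HFD had 0 called genes against chow, and no gene was called lower. Fewer of all probes were called higher in that setting too, namely 2.67% for HFD+1B relative to chow, 4.31% relative to HFD, and 1.49% relative to 1B, and 0.891% for HFD relative to chow. A rule of at least a 2-fold change at an unadjusted p of at most 0.05 gave 1 higher gene in HFD against chow, with 0.421% of all probes higher by that rule. It gave 3 for HFD+1B relative to chow (1.5% of probes), 3 relative to 1B (0.969%), and 0 relative to HFD (1.32%), and 0 for 1B relative to chow (0.531%).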

How the data were processed

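The 10 genes and all gene lists were chosen with earlier results of these data known. Arrays were Agilent mouse arrays, and each of 17 holds 1 mouse (4 chow, 4 1B, 4 HFD, and 5 HFD+1B) with no dye swap, on 5 slides. The authors scanned them with Feature Extraction 11.5.1.1 and deposited median signals and local backgrounds as raw intensity, together with processed signals and their log10 ratio after background subtraction and dye normalization. They also deposited a table of log2 ratios, equal to the processed ratios within 2.74e-06. That table supplied probe names, symbols, and sequences and served as an alternative.

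Log ratios were computed here from median signals with limma 3.58.1 in R 4.3.3: normexp background correction with an offset of 50, then loess within arrays. Control spots and spots marked as outliers were left out (3424 missing values), and spots of a probe were averaged. Probes well above background in Cy5 on at least 4 arrays and with a value in each group were tested (34664 of 41174, from 19358 genes). A linear model over all 17 arrays with 13 residual degrees of freedom gave 6 comparisons, and p-values were adjusted by Benjamini-Hochberg. A gene with several probes was represented by the brightest in Cy5. By array, median Cy5 signals lay at 99 to 138 (chow), 69 to 134 (1B), 63 to 98 (HFD), and 90 to 158 (HFD+1B). The number of arrays limits the precision. The labels do not say whether mice shared cages or litters.

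All probes of the 10 genes were named. From the 119 other matrix genes, up to 4 of the largest rises and 4 of the largest falls among called genes were named per comparison, and 2 genes per member by Pearson r over the 17 arrays. A gene that this rule names is not reported here. The fit was tested on simulated data over 34664 probes: of 100 probes changed by 1 log2 unit in HFD+1B, 96 were called against chow and 75 in the interaction. The simulated spread of a probe was the same in every group, with no slide effect. HFD+1B mice were more spread than the others for several genes, so these shares do not give the recovery in the real data. Alternatives were the deposited log2 table, median centering, no background subtraction, Cy5 alone, other filters on dim probes, outlier spots kept, slide or replicate number as a block, a fold threshold, the mean of a gene's probes, the Tukey test, and leaving out each mouse.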

Additional observations from a re-analysis of the deposited data

Results flagged for a closer look

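The ethanol effect differed between diets for 3 of the 112 other matrix genes, 2 higher and 1 lower, where 2.5% of all probes were higher and 1.6% lower. Postn was -0.67 on average in HFD and -0.04 in HFD+1B, against 0.28 in chow and -0.01 in 1B, an interaction of 0.92 (SE 0.18, adjusted p = 0.0117 by limma). Reck averaged 0.45 in 1B and between -0.15 and -0.12 in the other groups, an interaction of -0.60 (SE 0.14, adjusted p = 0.0279), and its call was lost without chow mouse 1, 1B mouse 1 or 4, or HFD mouse 4 (-0.59 to -0.52, adjusted p from 0.0551 to 0.0637). Cd47, a receptor for thrombospondin-1, had an interaction of 0.51 (SE 0.14, adjusted p = 0.0482), lost when any of 14 mice was left out, namely all except HFD mouse 2 and HFD+1B mice 1 and 3 (0.42 to 0.53, adjusted p from 0.0560 to 0.0918). None of the 3 was called by limma from Cy5 alone: 0.40 for Postn, -0.54 for Reck, and 0.79 for Cd47 (adjusted p = 0.509, 0.179, and 0.304). Cd47 lost its call in 7 of 11 alternative settings, among them the deposited log2 table (0.58, adjusted p = 0.137).

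Single mice stood apart in 3 of 35 groups of values examined, where chance puts about 1 in 20 groups past this limit. For Ctgf, 1B mouse 4 read 0.43 and the next highest 1B mouse -0.54, a gap of 0.841 of the range. For Spp1, chow mouse 3 read -0.69 and the next -1.37, a gap of 0.846 of the range. For Thbs1, HFD+1B mouse 4 read 1.44 and the next 0.13, a gap of 0.801 of the range, and this was the only HFD+1B value of the 3.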

How the results depend on the processing

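No difference of a member gene that was called in the report changed direction under an alternative fit or with a mouse left out. Within single slides, 1 did: Timp1 in HFD+1B against 1B was -0.029 on slide 1. Differences that were never called changed sign in some settings. Values are limited by few arrays and, for Mmp2 and the dim probes of Thbs1, by signal near background.

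From Cy5 alone, HFD had 0 called member genes over chow, and HFD+1B had 2 over chow, 1 over HFD, and 1 over 1B. By the fold rule these were 1, 3, 0, and 3. In HFD against chow, 1 was called with no filter on dim probes, with probes above background on all 17 arrays, with the mean of probes, and with the Tukey test, and the mean of probes gave 1 in HFD+1B against HFD. An offset of 16, chosen after seeing the data, gave 3 for HFD over chow and, for HFD+1B, 6 over chow and 3 over HFD. Other matrix genes called by the fold rule were 0 for 1B and 7 for HFD relative to chow, and for HFD+1B 11 relative to chow, 4 relative to HFD, and 8 relative to 1B. Median centering gave 39 for HFD+1B relative to HFD and 7 in the interaction, and slide as a block gave 6 in the interaction.

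Leaving out 1 mouse gave 0 to 3 member genes for HFD relative to chow, and for HFD+1B 3 to 7 relative to chow, 1 to 3 relative to HFD, and 2 to 6 relative to 1B, with 0 throughout for 1B relative to chow and the interaction. For other matrix genes, the ranges were 2 to 4 for 1B relative to chow, 11 to 22, 25 to 41, 13 to 22, and 16 to 40 in the same order, and 1 to 4 in the interaction.

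With the replicate number as a block, 3 member genes were called in HFD against chow, Spp1 being added, and 5 other matrix genes in the interaction. Deviations of same-numbered mice correlated from -0.13 to 0.48 over 24 pairs. Of these, 16 were over 0.1, against 19 of 84 pairs with different numbers, and because not all were, the numbers were not taken to pair the mice. Numbers partly coincide with slides, where 16 of 21 pairs on the same slide and 19 of 87 on different slides were over 0.1. The cause of these changes was not tested.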
